A study of Mus musculus with 12 samples.

Results

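The combined response of liver RNA to hepatocyte-specific loss of PPARα and to CDAHFD was studied as the interaction of genotype and diet. CDAHFD is a high-fat diet that lacks choline and has defined L-amino acids, and it produces steatohepatitis in mice. The interaction was computed per gene as the diet effect in KO mice minus the diet effect in WT mice on the log2 scale, and all 12 libraries of the series (12 of 12) entered it. WT mice (PPARa fl/fl, AlbuminCre +/+) gave 4 libraries on chow (WT chow) and 3 on CDAHFD (WT CDAHFD). KO mice (PPARa fl/fl, AlbuminCre Tg/+) gave 2 libraries on chow (KO chow) and 3 on CDAHFD (KO CDAHFD). In the KO mice Cre is driven by the albumin promoter, so deletion was aimed at hepatocytes, and other liver cells keep their Ppara. All mice were C57BL/6J males carrying the floxed allele, 7 weeks old at the start of the diet and 13 weeks old at sacrifice after 6 weeks of chow or CDAHFD. Each value is therefore from a whole liver sample of a male mouse after a single length of feeding. The study's methods give 3 mice per group, and in its histology the numbers of KO mice per diet are the reverse of those of the libraries. Groups were taken from the labels. An exchange of the diet labels of the KO mice, which would turn the sign of the diet effect in KO, was not tested.

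PPARα is a nuclear receptor that binds fatty acids and, as a partner of RXR, switches on the genes of fatty acid uptake, mitochondrial and peroxisomal β-oxidation, omega-hydroxylation and ketogenesis. In hepatocytes it is active in fasting, when fat is the main fuel, and it restrains inflammatory gene expression. On a diet that is rich in fat and without choline, liver accumulates triglyceride, loses hepatocytes, regenerates and scars. If the loss of PPARα and the diet act on a gene independently, their log2 changes add up, and the interaction is 0.

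Total counts ran from 29906785 to 43551003 per library, and 17358 genes passed the filter on low counts and were tested. A library with no count of a gene can still hold up to 3 counts, which covers counting error only. Libraries of the same group differed by more than sampling noise in all 13 pairs, and no library was merged with another. In log2 CPM (each count scaled to the library's total by the TMM method), WT chow libraries correlated with those of the other groups at r of 0.901 to 0.939 across genes. The r between libraries of the other 3 groups ran from 0.962 to 0.987, so KO chow stood nearer to the CDAHFD groups than to WT chow. Between KO chow and WT CDAHFD, 1063 of the 17358 genes (6.12%) differed at an edgeR adjusted p under 0.05. Nothing in the counts records what a mouse ate, and the interaction rests on the 2 KO chow libraries. Summed hepatocyte markers ran from 109376 to 130591 CPM in WT chow, and the KO chow libraries held 93192 and 107822. Both CDAHFD groups together ran from 59307 to 74523 and overlapped, and KO chow lay between them and WT chow. Neutrophil markers, in contrast, overlapped between KO chow and both CDAHFD groups. Whether the diet labels of the KO mice hold was not tested. The clock genes split WT chow, where replicates 1 and 2 had scores of 1.17 and 1.02 and replicates 3 and 4 had scores of -1.39 and -1.39, on a scale of 1 SD over the libraries. KO chow had 0.883 and -0.786. KO CDAHFD was split too, at 0.382, 0.344 and -1.55, while WT CDAHFD ran from 0.196 to 0.602. With the score as a covariate 4701 genes had a called interaction, against 4011 without it. The labels name no batch.

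Ppara, the deleted gene, held 120.1, 96.2, 238 and 226 CPM in WT chow, 59.5, 75.5 and 73.5 in WT CDAHFD, 14.4 and 38.7 in KO chow and 36.3, 20.7 and 51.9 in KO CDAHFD. All 5 KO libraries lay below all 7 WT libraries. WT CDAHFD also lay below WT chow in every library. In WT chow, KO chow and KO CDAHFD, the libraries with a negative clock score held the most Ppara, and WT CDAHFD had only positive scores. The diet effect on Ppara was -1.29 in WT and 0.45 in KO on the log2 scale, and the interaction was 1.74 (SE 0.62, edgeR adjusted p = 0.0605), with a 95% interval of 0.40 to 3.08, not past the threshold. It passed the threshold in 7 of 20 alternative fits, among them DESeq2 and the fit with the clock score. With the clock score the interaction was smaller, at 1.27. Counts were summed over the gene (ENSMUSG00000022383, chromosome 15 from 85734983 to 85802819, plus strand, GRCm38) in a whole liver sample. Reads on the deleted part were not told apart from the rest, so the counts do not measure functional receptor.

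The diet changed 8863 genes (51.1%) in WT and 1075 (6.19%) in KO at an edgeR adjusted p under 0.05. The genotype changed 6763 genes (39.0%) on chow and 62 (0.357%) on CDAHFD, of which 15 (0.0864%) were higher and 47 (0.271%) lower in KO. KO CDAHFD differed from WT chow in 9091 genes (52.4%). The diet effects in the genotypes share no library with each other, nor do the genotype effects on the diets. The interaction was called for 4011 genes (23.1%), of which 1498 (8.63%) had a higher and 2513 (14.5%) a lower value. With library size as the only scaling, 676 were higher and 4268 lower, and the median of all genes moved from 0.01 to -0.34, so the split of directions depends on the scaling. Without KO chow replicate 1 the higher calls fell to 887. A lower value means that the diet raised the gene less, or lowered it more, in KO than in WT.

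Genes were then sorted by how the combined change related to the sum of the single changes. The base was the 5572 genes whose diet effect in WT and genotype effect on chow were both called in the same direction. Of these, 3661 (65.7%) were less than additive, meaning that the interaction was called and opposed the single effects. Another 666 (11.95%) were additive, meaning that the interaction was not called and its 95% interval lay within 1 log2 unit of 0. For 1244 genes (22.3% of the base and 7.17% of all tested) the interval was wider and the class undetermined, and 1 gene was more than additive. Over all genes tested, the less than additive class took 21.1%, the additive class 3.84% and the more than additive class 0.00576%. Only genes of the base could enter these classes, and 349 genes called for the interaction lay outside it. Of these, 202 (1.16% of all genes) had only the genotype effect on chow called and 111 (0.639%) only the diet effect in WT. Neither was called in 32 (0.184%), and 4 had both called in opposite directions. A gene that changed only with both factors together is therefore not counted as more than additive. Both single effects are taken against the same 4 WT chow libraries. An error in that group therefore moves the single effects one way and the interaction the other, which by itself adds to the less than additive class.

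Among the less than additive genes, 2349 rose and 1312 fell with either factor. Their median change was 1.64 log2 units with diet in WT, 1.49 with genotype on chow and 1.58 with both together, where the sum of the single changes had a median of 3.17. In 3266 of them (89.2%) the diet effect in KO was not called, with a median size of 0.32 over the class. It was called in the same direction in 296 and in the opposite direction in 99. In 875 genes (23.9%) the combined change was larger than either single change. On the linear CPM scale 3619 of the 3661 genes were also less than additive. The additive class was made of smaller changes, with medians of 0.52 with diet in WT, 0.48 with genotype on chow and 0.66 with both. For this class the sum of the single changes had a median size of 1.02, and the diet change in KO one of 0.17. The combined change was larger than either single change in 491 of its 666 genes (73.7%). The point estimate leaned to less than additive in 661 of these 666 genes. In 302 the 95% interval left out 0, so the class does not show exact addition. Its limit of 1 log2 unit is about as large as the median sum. A gene with small effects can therefore lose its diet effect in KO and still fall in this class. On the linear CPM scale 647 of the 666 were less than additive. The additive class depended on the scaling and on KO chow. Without KO chow replicate 1 it held 266 genes, and without replicate 2 it held 301. With library size as the only scaling it held 889 genes, of which 11 were among the 666. The plot of the diet effects shows the less than additive genes lying flat along a diet effect of 0 in KO.

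**Figure D1:**
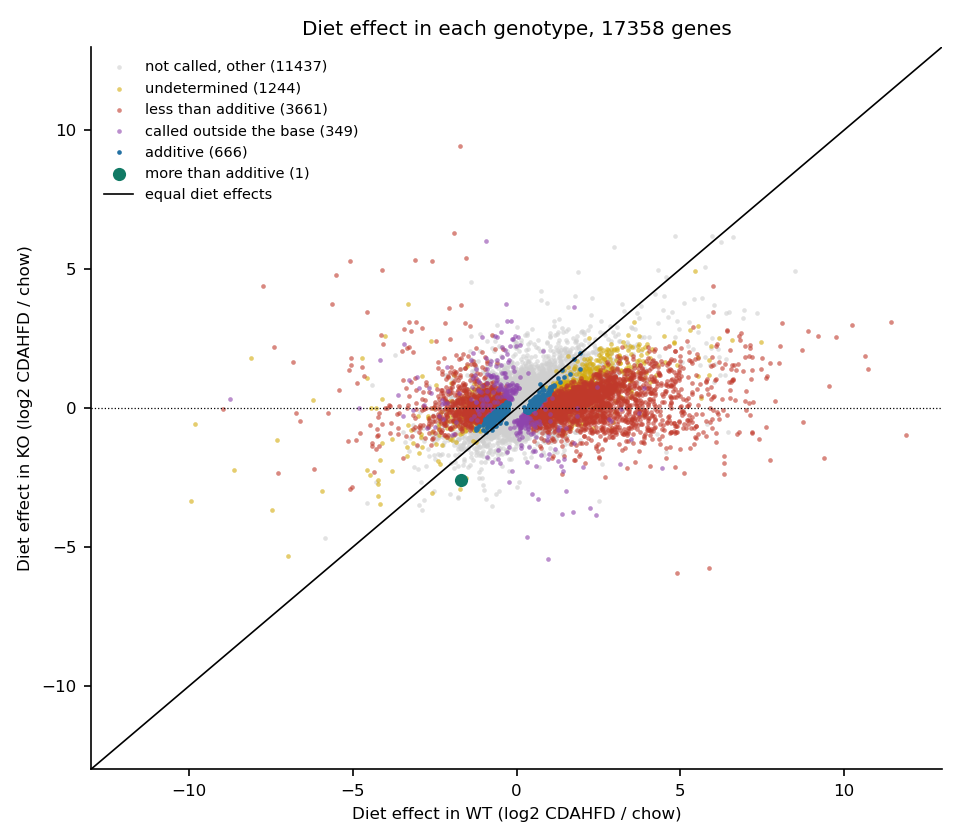
Diet effect (log2 CDAHFD over chow) in WT on the x axis and in KO on the y axis for the 17358 genes tested, each point 1 gene coloured by class, with the number of genes in the legend. Genes on the solid line respond equally in both genotypes (interaction 0), and the 3661 less than additive genes spread along the dotted line of no diet effect in KO.

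The functions were compared through lists of genes, 61 in all. For cell division and macrophage genes the combined change lay far below the sum. 37 of 40 genes of mitosis and the kinetochore, which build and separate the chromosomes, had a called interaction below 0, where the background was 14.5%. Their median change was 3.84 with diet in WT, 4.37 with genotype on chow and 3.62 with both, where the sum had a median of 8.32. With diet in KO the median was -0.67. Mki67, a marker of cycling cells, held 2.25, 1.57, 2.47 and 2.11 CPM in WT chow, 46.6, 44.95 and 40.99 in WT CDAHFD, 50.7 and 37.6 in KO chow and 46.9, 50.2 and 25.7 in KO CDAHFD. The 3 groups other than WT chow overlapped, and all their libraries lay above WT chow. Its interaction was -4.51 (SE 0.33, edgeR adjusted p = 2.96e-06). Top2a, the topoisomerase that untangles replicated DNA, lay at 1.24 to 2.301 CPM in WT chow, 25.5 to 26.5 in WT CDAHFD, 23.9 and 54.2 in KO chow and 17.01 to 25.02 in KO CDAHFD. Its interaction was -4.61 (SE 0.39, edgeR adjusted p = 7.43e-06). Of the DNA replication genes, 24 of 35 were lower and 1 higher, with a median interaction of -1.25. Mcm6, a subunit of the replicative helicase, had 4.17 to 5.67 CPM in WT chow and 24.4 to 27.1 in KO CDAHFD, with an interaction of -2.62 (SE 0.24, edgeR adjusted p = 1.13e-05). Among p53 targets and cell cycle inhibitors 11 of 20 were lower, and Phlda3, a p53 target that restrains Akt, had an interaction of -4.19 (SE 0.32, edgeR adjusted p = 3.65e-06). The promoters of Mki67 and Top2a are shown as examples of this list, whose members moved together, with the CCAAT box on either strand (CCAAT or ATTGG) in capitals. They are the 250 bases before the start in RefSeq on GRCm38.p6, 5′ to 3′ on the minus strand, at chr7:135716380-135716629 for Mki67 and chr11:99024190-99024439 for Top2a.

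Mki67: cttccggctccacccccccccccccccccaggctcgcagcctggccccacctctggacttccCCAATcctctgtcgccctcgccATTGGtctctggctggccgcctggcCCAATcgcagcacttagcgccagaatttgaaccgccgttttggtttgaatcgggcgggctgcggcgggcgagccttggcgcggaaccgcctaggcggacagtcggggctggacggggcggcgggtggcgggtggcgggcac

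Top2a: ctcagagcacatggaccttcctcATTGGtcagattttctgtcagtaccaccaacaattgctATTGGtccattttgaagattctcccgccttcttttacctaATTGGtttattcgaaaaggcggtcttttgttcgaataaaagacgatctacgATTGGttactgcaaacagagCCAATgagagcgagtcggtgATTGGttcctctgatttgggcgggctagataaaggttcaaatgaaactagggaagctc

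CCAAT stood in this window of 27 of the 35 mitosis genes matched to the RefSeq table (77.1%), in 18 of 30 DNA replication genes (60.0%) and in 37.5% of the 27025 genes of the table. Among single promoters it stood in 33.8% of 32851. In the other lists looked at, its share ran from 33.3% of AP-1 and early response genes to 53.3% of lipid-associated macrophage genes. Of these lists only AP-1 and early response lay below the share of all genes, so a raised share is not particular to cell division. The motif was kept after 12 spellings had been looked at: 4 of the PPAR response element and 8 short motifs in 7 lists. None of 47 matched oxidation genes held any of the 4. These spellings stood in only 0.0% to 0.5% of all genes, so their absence says nothing of the oxidation genes. CCAAT in mitosis genes was picked because it stood out, so its share is a description of letters chosen after they were seen, and says nothing of binding.

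Genes of lipid-associated macrophages, the phagocytes that gather around fat-laden and dying hepatocytes, were called lower in 16 of 18. In this list 12 of the 18 rose with diet in KO, where the background was 3.76%. Gpnmb, a lysosomal glycoprotein of these cells, held 0.349, 0.2203, 0.333 and 0.0917 CPM in WT chow, 782, 796 and 559 in WT CDAHFD, 75.6 and 73.2 in KO chow and 657, 560.2 and 676 in KO CDAHFD. KO chow lay between WT chow and both CDAHFD groups without overlap, and the CDAHFD groups overlapped. The diet effect was 11.43 in WT and 3.08 in KO, and the interaction was -8.34 (SE 0.32, edgeR adjusted p = 1.28e-08). Mmp12, the macrophage elastase, held 0.311, 0.283, 0.233 and 0.229 CPM in WT chow, 479, 448 and 354 in WT CDAHFD, 79.7 and 143 in KO chow and 391.6, 381 and 448 in KO CDAHFD. It showed the same order of groups, with an interaction of -8.76 (SE 0.33, edgeR adjusted p = 1.28e-08). Trem2, a lipid receptor of macrophages, lay at 17.9 and 19.8 CPM in KO chow and 61.9 to 71.4 in KO CDAHFD, with an interaction of -5.16 (SE 0.30, edgeR adjusted p = 6.33e-07). The list's summed level was 640 to 1027 CPM in WT chow, while KO chow reached 1650 and 1799. WT CDAHFD held 3225 to 4264 and KO CDAHFD 3477 to 3823. In a bulk sample, fewer cells of a type and less RNA per cell cannot be told apart.

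Inflammatory and early response genes were also often less than additive. Of the chemokines and their receptors, which draw leukocytes into tissue, 20 of 30 were lower and 2 higher. Cxcr4, the receptor of Cxcl12, lay at 0.441 to 0.776 CPM in WT chow, 8.54 to 10.3 in WT CDAHFD, 6.17 and 7.57 in KO chow and 9.58 to 10.4 in KO CDAHFD. Its interaction was -3.59 (SE 0.27, edgeR adjusted p = 3.36e-06). Of AP-1 and other early response genes, 17 of 26 were lower, among them Egr2, a zinc finger factor, at -5.04 (SE 0.30, edgeR adjusted p = 7.14e-07), and Klf6, a Krüppel-like factor, at -3.04 (SE 0.20, edgeR adjusted p = 1.07e-06). Of the inflammasome genes, 11 of 20 were lower and 1 higher. Il1rn, the antagonist of the IL-1 receptor, had an interaction of -3.76 (SE 0.38, edgeR adjusted p = 2.25e-05). Of the toll-like receptor and TNF family genes, 17 of 37 were lower. Interferon-induced genes were lower in 11 of 29 and MHC and antigen processing genes in 9 of 20. Summed Kupffer cell markers were highest in KO chow (1365 and 1574 CPM) against 461 to 787 in WT chow. WT CDAHFD held 1070 to 1265 and KO CDAHFD 795 to 1294. Neutrophil markers summed to 3.84 to 16.3 CPM in WT chow and 24.7 to 37.6 over the other groups. Endothelial markers gave 2 lower calls among 16, near the 14.5% over all genes, against which the counts above are to be read. The part of a changed cell makeup in these lists was not tested.

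Matrix genes were mostly less than additive, 15 of 19 collagen chains among them. Of the collagen chains, 13 of 19 were lower and 2 higher, and 4 rose with diet in KO, where the background was 3.76%. Col5a2, a fibrillar chain, held 5.36, 3.37, 2.901 and 3.899 CPM in WT chow, 47.1, 52.1 and 43.6 in WT CDAHFD, 46.7 and 41.9 in KO chow and 49.1, 46.9 and 70.6 in KO CDAHFD. The 3 groups other than WT chow overlapped, and the interaction was -3.29 (SE 0.29, edgeR adjusted p = 9.87e-06). Col27a1 went the other way. It held 81.9, 90.5, 79.2 and 84.8 CPM in WT chow, 11.1, 12.7 and 13.4 in WT CDAHFD, 9.82 and 7.18 in KO chow and 14.8, 14.8 and 19.7 in KO CDAHFD, and its interaction was 3.72 (SE 0.23, edgeR adjusted p = 7.55e-07). Both single effects lowered it, and the KO CDAHFD libraries lay above those of KO chow. Of the matrix proteases, inhibitors and crosslinkers 17 of 25 were lower. Timp1, an inhibitor of matrix metalloproteinases, had 0 to 0.167 CPM in WT chow and 8.41 to 12.7 in KO CDAHFD, with an interaction of -5.87 (SE 0.52, edgeR adjusted p = 1.12e-05). Its WT chow values lay near 0, so the size of this interaction rests on few counts. Stellate cell and TGF-β genes were lower in 13 of 22. Their summed CPM ran from 1888 to 2956 over all libraries, with KO chow at 1888 and 2414. Of the markers of cholangiocytes and ductular cells, 9 of 14 were lower and 1 higher, while 8 rose with diet in KO (background 3.76%). The list summed to 86.7 to 123 CPM in WT chow and to 246 and 377 in KO chow. With CDAHFD it reached 455 to 697 in WT and 702 to 1058 in KO, without overlap. Outside WT chow, most of each sum was Spp1, which is also in the macrophage list. Spp1 held 433, 525 and 314 CPM in WT CDAHFD and 500, 746 and 797 in KO CDAHFD, with overlap. The genotype effect on CDAHFD was called in 0 of the 14 genes, where the background was 0.357%, so this count says little of the list. Epcam, an adhesion molecule of these cells, lay at 6.33 and 11.3 CPM in KO chow and 25.4 to 38.3 in KO CDAHFD, with an interaction of -1.21 (SE 0.36, edgeR adjusted p = 0.0297).

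Targets of NRF2, the factor that induces glutathione synthesis and detoxification, had interactions below 0, and some fell with diet in KO. Of 27 genes 19 were lower, and 8 had a called fall with diet in KO, where the background was 2.44%. Slc7a11, the cystine importer that feeds glutathione, held 0.0388, 0, 0.0667 and 0.0917 CPM in WT chow, 11.6, 12.1 and 7.91 in WT CDAHFD, 23.8 and 30.9 in KO chow and 6.98, 6.58 and 9.11 in KO CDAHFD. WT chow held 0 to 2 counts per library, so its log2 values depend on the prior count. KO chow lay above all other groups, and the interaction was -9.60 (SE 0.46, edgeR adjusted p = 1.58e-07). Gsta1, a glutathione transferase with close paralogs, held 0.194, 0.598, 0.5002 and 0.413 CPM in WT chow, 20.2, 20.04 and 16.6 in WT CDAHFD, 42.3 and 37.03 in KO chow and 14.2, 21.01 and 13.7 in KO CDAHFD. KO chow again lay above both CDAHFD groups, and the interaction was -6.72 (SE 0.34, edgeR adjusted p = 1.90e-07). Srxn1, which repairs peroxiredoxins, had a diet effect of 2.27 in WT and -0.79 in KO, with an interaction of -3.06 (SE 0.20, edgeR adjusted p = 1.07e-06).

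**Figure D2:**
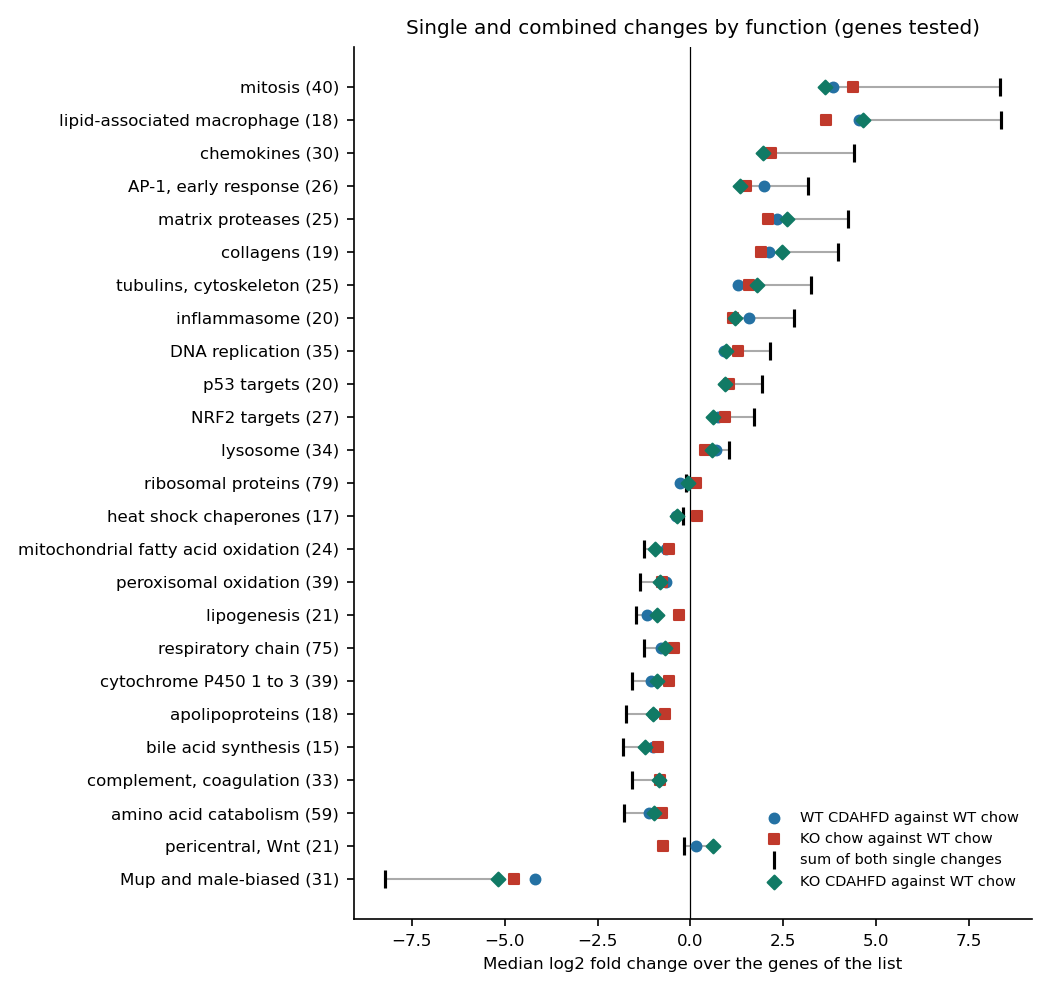
Median log2 fold change against WT chow over the tested genes of 25 lists, for WT CDAHFD (circles), KO chow (squares) and KO CDAHFD (diamonds), with the sum of both single changes as a tick. The grey line is the distance between the combined change and the sum, from 3.62 to 8.32 for mitosis and from -0.95 to -1.26 for mitochondrial fatty acid oxidation.

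The hepatocyte functions of this paragraph had more called interactions above 0 than below. The major urinary proteins and male-biased liver genes, pheromone carriers and growth hormone targets of the male liver, were higher in 26 of 31, where the background was 8.63%, with a median interaction of 4.37, or 6.90 without KO chow replicate 1. Mup11 held 969, 614, 310.4 and 790.2 CPM in WT chow, 16.1, 20.9 and 6.91 in WT CDAHFD, 0.245 and 0.0485 in KO chow and 3.78, 5.64 and 2.59 in KO CDAHFD. KO chow was the lowest group, and its diet effect was -5.52 in WT and 4.78 in KO, with an interaction of 10.30 (SE 0.95, edgeR adjusted p = 1.30e-05). Mup genes share sequence and can exchange reads. Susd4, a complement inhibitor of the same list, lay at 38.4 to 61.2 CPM in WT chow, 3.59 to 5.18 in WT CDAHFD, 0.315 and 0.843 in KO chow and 2.89 to 5.43 in KO CDAHFD. Its interaction was 6.29 (SE 0.49, edgeR adjusted p = 3.84e-06). Amino acid catabolism was higher in 34 of 59 genes and lower in 1. Aadat, of lysine and tryptophan breakdown, lay at 144 to 216 CPM in WT chow, 49.3 to 55.4 in WT CDAHFD, 45.6 and 53.2 in KO chow and 40.3 to 48.8 in KO CDAHFD. KO chow overlapped with both CDAHFD groups, with an interaction of 1.68 (SE 0.21, edgeR adjusted p = 1.24e-04). Complement and coagulation genes were higher in 19 of 33 and lower in 2. Factor VII (F7) had an interaction of 1.15 (SE 0.18, edgeR adjusted p = 5.69e-04), while factor IX (F9) was additive at 0.21 (SE 0.14, edgeR adjusted p = 0.33). Apolipoproteins were higher in 11 of 18 and lower in 2. Apoa2 of high-density lipoprotein had an interaction of 1.505 (SE 0.27, edgeR adjusted p = 0.0015). Apoa4, an apolipoprotein raised in fatty liver, held 51.98, 36.7, 51.3 and 48.1 CPM in WT chow, 495, 566 and 433 in WT CDAHFD, 966 and 943 in KO chow and 497, 479 and 574 in KO CDAHFD. KO chow lay highest and both CDAHFD groups overlapped, with an interaction of -4.29 (SE 0.22, edgeR adjusted p = 1.83e-07). Bile acid synthesis was higher in 8 of 15, with Cyp27a1, the sterol 27-hydroxylase, at 1.26 (SE 0.15, edgeR adjusted p = 7.40e-05). The nuclear-encoded respiratory chain was higher in 25 of 75 and additive in 8, where the additive class took 3.84% of all genes and 11.95% of the base. The list's median interaction was 0.56. With library size as the only scaling it was 0.20, which is 0.54 above the median of all genes. Cytochrome P450 families 1 to 3 were higher in 19 of 39 and lower in 7. Cyp3a11, a drug-metabolising P450 with close paralogs, held 306, 302, 309 and 266 CPM in WT chow, 1706, 1831 and 1569 in WT CDAHFD, 3839 and 3152 in KO chow and 822, 1052 and 1164 in KO CDAHFD. It rose with either factor and fell with diet in KO, with an interaction of -4.31 (SE 0.21, edgeR adjusted p = 1.58e-07).

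Genes of the hepatocytes around the central vein, kept on by Wnt signals, showed another pattern. Of 21 pericentral and Wnt target genes, 13 rose with diet in KO, where the background was 3.76%. With diet in WT 9 rose and 5 fell, where the backgrounds were 26.1% and 25.0%. The interaction was called higher in 11 and lower in 3, where the backgrounds were 8.63% and 14.5%. The less than additive class took 8 of the 21, against 21.1% of all genes. Glul, the glutamine synthetase of the last cell layer around the vein, held 1150.4, 1061, 1206 and 1114 CPM in WT chow, 1086, 1066 and 1144 in WT CDAHFD, 174 and 199 in KO chow and 1120.5, 1033 and 1205 in KO CDAHFD. KO chow lay below all other libraries, which overlapped. The diet effect was -0.04 in WT and 2.59 in KO, and the genotype effect was -2.60 on chow and 0.03 on CDAHFD. Its interaction was 2.63 (SE 0.17, edgeR adjusted p = 1.07e-06). Rhbg, an ammonium transporter, had 1.42 to 2.601 CPM in WT chow, 5.44 to 7.22 in WT CDAHFD, 0.315 and 0.6799 in KO chow and 5.77 to 6.67 in KO CDAHFD. It rose with diet and fell with genotype on chow, with an interaction of 1.90 (SE 0.41, edgeR adjusted p = 0.00499). It was 1 of 4 genes called for the interaction whose single effects were called in opposite directions. Cyp2e1 and Cyp1a2, pericentral P450 enzymes, fell with diet in WT and rose in KO. Cyp2e1 had an interaction of 2.79 (SE 0.36, edgeR adjusted p = 1.61e-04) and Cyp1a2 one of 2.53 (SE 0.23, edgeR adjusted p = 1.30e-05). Cyp2c50, a P450 with close paralogs, held 456, 752, 687 and 757 CPM in WT chow, 224, 207 and 232 in WT CDAHFD, 35.5 and 50.5 in KO chow and 352, 439.5 and 281 in KO CDAHFD. No groups overlapped in it, and the order from high to low was WT chow, KO CDAHFD, WT CDAHFD and KO chow, with an interaction of 4.64 (SE 0.34, edgeR adjusted p = 2.78e-06). In all, 101 genes (0.582%) had called diet effects of opposite direction in the genotypes, 802 had them in the same direction, and 172 were called in KO and not in WT.

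Fatty acid oxidation, the process PPARα controls, had a large share of its genes in the additive class. Of 24 genes of mitochondrial fatty acid oxidation and ketogenesis, 12 were additive, 4 less than additive and 2 undetermined, where the additive class took 3.84% of all genes and 11.95% of the base. The base held 18 genes of this list. The list's median change was -0.66 with diet in WT, -0.58 with genotype on chow and -0.95 with both, where the sum had a median of -1.26. With diet in KO the median was -0.32, and the median interaction was 0.29. Changes of this size can lose the diet effect in KO and stay within 1 log2 unit. The class alone therefore does not exclude such a loss. Of 39 genes of peroxisomal oxidation and the peroxins, 9 were additive and 14 less than additive, with medians of -0.66, -0.77 and -0.82. Of the 12 and 9 additive genes, the 95% interval left out 0 in 4 and 3, on the less than additive side. Over the fits that left out a library, the additive genes of the mitochondrial list numbered 7 without KO chow replicate 1, 8 without KO chow replicate 2 and 8 to 12 without any other. Those of the peroxisomal list numbered 6 and 5 without these libraries, 6 without WT CDAHFD replicate 1 and 7 to 10 without any other, and its less than additive genes fell to 7 to 10 without a library of KO chow or WT CDAHFD or without KO CDAHFD replicate 1 or 2. The less than additive genes of the mitochondrial list numbered 2 to 7 over these fits. With library size as the only scaling, 5 of the mitochondrial and 4 of the peroxisomal genes were additive, and 2 and 4 were less than additive.

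Cpt2, the inner carnitine palmitoyltransferase that releases fatty acids into the matrix (chromosome 4 from 107903981 to 107923610), held 207, 191, 223 and 186 CPM in WT chow, 129, 112 and 121 in WT CDAHFD, 107 and 101 in KO chow and 59.9, 62.5 and 57.5 in KO CDAHFD. The 4 groups did not overlap and fell in the order WT chow, WT CDAHFD, KO chow and KO CDAHFD. The diet effect was -0.74 in WT and -0.79 in KO, the genotype effect -0.96 on chow and -1.01 on CDAHFD. The interaction was -0.05 (SE 0.15, edgeR adjusted p = 0.85), with a 95% interval of -0.38 to 0.27. Etfdh, which passes electrons from the oxidation steps to the respiratory chain, held 354, 395, 458 and 417 CPM in WT chow, 253, 240.3 and 263 in WT CDAHFD, 172 and 184 in KO chow and 124, 123 and 97.3 in KO CDAHFD. It kept the same order without overlap, and its interaction was 0.05 with an interval of -0.34 to 0.45. Slc25a20, the carnitine-acylcarnitine carrier, lay at 115 to 176 CPM in WT chow, 84.9 to 92.2 in WT CDAHFD, 56.4 and 67.4 in KO chow and 36.6 to 42.4 in KO CDAHFD. These ranges did not overlap either, and the interaction was 0.01 (-0.46 to 0.48). Acadvl, the dehydrogenase of very long chains, had a diet effect of -0.83 in WT and -0.54 in KO, with an interaction of 0.29 (-0.05 to 0.63). Hadhb, a subunit of the trifunctional protein, had an interaction of -0.21 (-0.57 to 0.15) and smaller effects of -0.33 with diet in WT and -0.42 with genotype on chow. Hadhb was additive in 11 of 20 alternative fits, and with library size as the only scaling its interaction was called at -0.57. Under that scaling Cpt2 (-0.40), Slc25a20 (-0.35), Etfdh (-0.31) and Hsd17b4 (-0.38) also left the additive class, where the median of all genes was -0.34. These 4 genes were additive in the other 19 fits.

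Hsd17b4, the bifunctional enzyme of peroxisomal β-oxidation, held 511, 516, 618 and 575 CPM in WT chow, 397, 369 and 402 in WT CDAHFD, 297 and 280.3 in KO chow and 204, 202 and 189.5 in KO CDAHFD. Its 4 groups were in the order seen for Cpt2 and did not overlap, and the interaction was -0.03 (-0.36 to 0.31). Pxmp4, a peroxisomal membrane protein, had an interaction of 0.07 (-0.57 to 0.71), and Decr2, the peroxisomal dienoyl-CoA reductase, one of 0.39 (-0.13 to 0.92). Acsl1, which activates fatty acids, was less than additive. It held 1307 to 1689 CPM in WT chow, 434 to 552 in WT CDAHFD, 450.1 and 457 in KO chow and 336 to 435 in KO CDAHFD, with an interaction of 1.39 (SE 0.21, edgeR adjusted p = 5.12e-04). Ehhadh, another peroxisomal bifunctional enzyme, had no called single effect and lay at 168 to 202 CPM in KO CDAHFD and 290.4 and 298 in KO chow, with an interaction of -0.82 (SE 0.21, edgeR adjusted p = 0.0133).

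**Figure D3:**
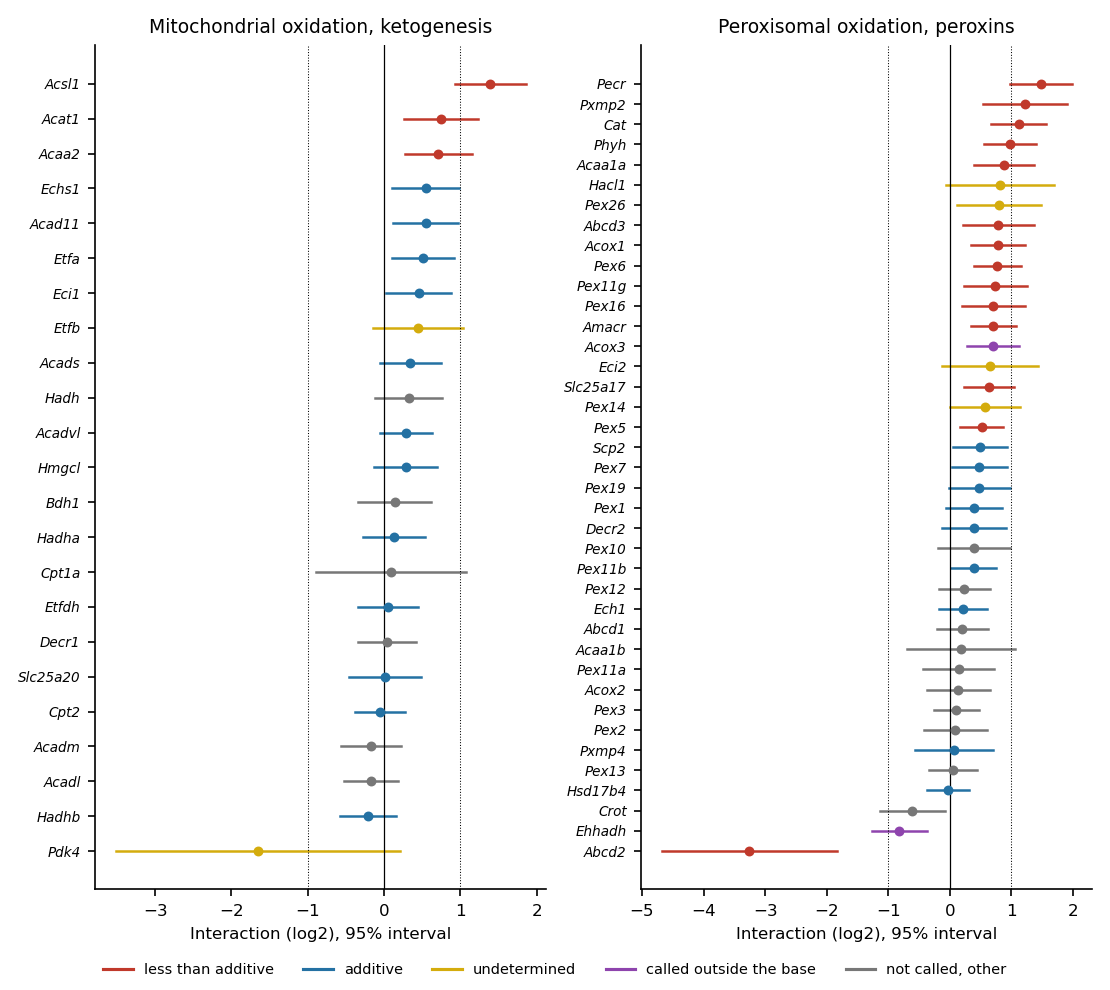
Interaction (log2) with its 95% interval for tested genes of mitochondrial fatty acid oxidation and ketogenesis (left, 23 of 24 genes) and of peroxisomal oxidation and the peroxins (right, 39 genes), coloured by class. The dotted lines at -1 and 1 bound the additive class, and Cpt2 (-0.05), Slc25a20 (0.01), Etfdh (0.05) and Hsd17b4 (-0.03) lie close to 0.

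Genes whose 4 simple effects (diet in each genotype, genotype on each diet) were all called in one direction numbered 16 (0.0922%), of which 14 fell. Of these 16, 9 were additive, 2 less than additive and 1 more than additive. Picking genes whose effects persist under the other factor by itself works against the less than additive class, so these shares are no separate result. The falling genes included Cpt2, Etfdh, Slc25a20, Acadvl, Hadhb, Hsd17b4 and Pxmp4, named above, with Abhd6, a monoacylglycerol lipase, Dhrs4, a peroxisomal reductase, and Retsat, which saturates retinol and was less than additive at 1.30 (SE 0.19, edgeR adjusted p = 3.43e-04). Over 4 lists tied to PPARα (both oxidation lists, the Cyp4 omega-hydroxylases and other responsive genes), the genotype effect on CDAHFD was called in 18 of 96 genes (18.75%), all 18 lower in KO, where the background for lower calls was 0.271%. Of the 18, 11 were additive and 1 less than additive. Of all 62 genes with this effect called, 15 were additive and 15 less than additive. The call that picked these genes also bears on their class. These lists were written with earlier results known. Vnn1, the pantetheinase, moved with both factors in opposite directions. It lay at 12.5 to 31.4 CPM in WT chow, 68.5 to 87.9 in WT CDAHFD, 2.81 and 5.49 in KO chow and 10.8 to 13.4 in KO CDAHFD, with an interaction of -0.18 (SE 0.44, edgeR adjusted p = 0.815). The genotype effect on CDAHFD of Hadhb, Ech1, Eci1 and Retsat was called in 11, 12, 9 and 13 of 20 alternative fits, and that of Cpt2, Etfdh, Slc25a20, Acadvl, Decr2 and Hsd17b4 in all 20.

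Cyp4a32, an omega-hydroxylase of fatty acids (ENSMUSG00000063929, chromosome 4 from 115600969 to 115621602), was the 1 gene called more than additive. It held 60.2, 69.8, 81.8 and 46.00 CPM in WT chow, 19.8, 21.5 and 18.2 in WT CDAHFD, 11.7 and 13.4 in KO chow and 1.77, 2.03 and 2.38 in KO CDAHFD. No groups overlapped, and the KO CDAHFD libraries lay far below the rest. The diet effect was -1.70 in WT and -2.61 in KO, with an interaction of -0.91 (SE 0.27, edgeR adjusted p = 0.0297). The call was held in 13 of 20 alternative fits and lost with limma voom and without WT CDAHFD replicate 1 or 2, either KO chow library or KO CDAHFD replicate 1 or 2, with adjusted p up to 0.0995. Cyp4a genes are near-identical, so how reads were shared among them is uncertain. Its relatives Cyp4a12a and Cyp4a12b fell with all 4 simple effects, with overlap of neighbouring groups and undetermined interactions of -0.47 (SE 0.91, edgeR adjusted p = 0.764) and -1.19 (SE 0.63, edgeR adjusted p = 0.206). Cyp4a12b was called more than additive when every gene with a count was tested (-1.24, edgeR adjusted p = 0.0394) and without KO chow replicate 2 (-1.93, edgeR adjusted p = 0.00693), where Cyp4a32 was not.

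**Figure D4:**
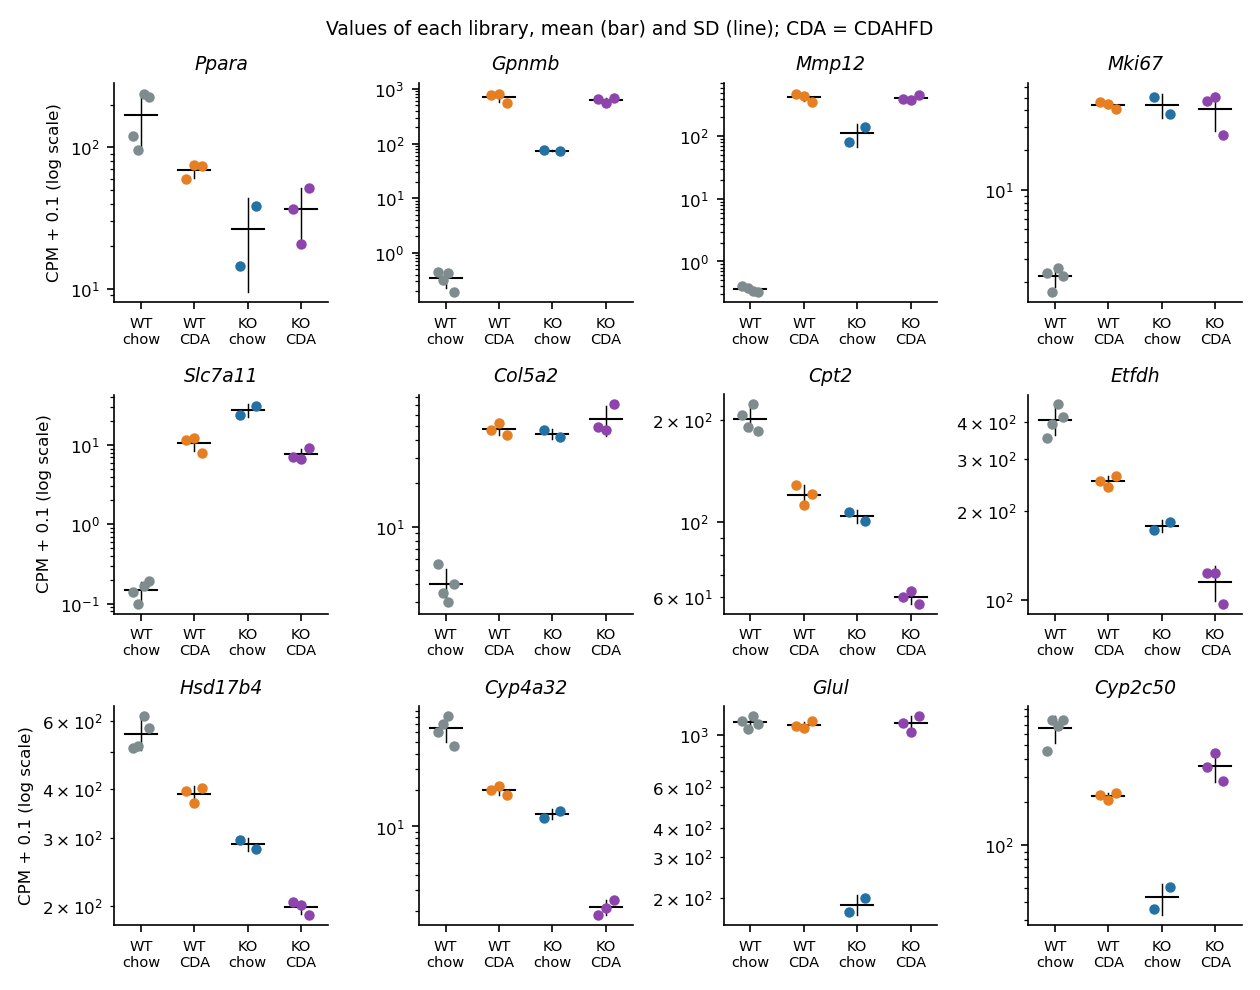
Value of each library as CPM + 0.1 on a log axis for 12 genes, grouped by WT chow, WT CDAHFD, KO chow and KO CDAHFD (CDA on the axis), with the group mean as a bar and the SD as a line. Cpt2, Etfdh, Hsd17b4 and Cyp4a32 step down across the 4 groups, and Mki67 and Col5a2 are high in all groups but WT chow. For Gpnmb and Mmp12 KO chow lies between WT chow and both CDAHFD groups, and Glul is low in KO chow.

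Other lipid genes were mixed. Of 21 genes of de novo lipogenesis, 6 were higher and 1 lower, and of 13 genes of fatty acid uptake and binding, 2 were higher and 6 lower. Thrsp, a lipogenic regulator, held 78.7, 122, 106 and 137 CPM in WT chow, 5.57, 6.603 and 7.08 in WT CDAHFD, 23.96 and 16.01 in KO chow and 11.8, 14.6 and 13.7 in KO CDAHFD. WT CDAHFD was its lowest group, and the interaction was 3.53 (SE 0.31, edgeR adjusted p = 9.85e-06). Mlxipl, which encodes the glucose-responsive factor ChREBP, had an interaction of 1.88 (SE 0.22, edgeR adjusted p = 8.58e-05). Cd36, a fatty acid translocase, lay at 17.5 to 29.9 CPM in WT chow, 349.97 to 493 in WT CDAHFD, 123 and 184 in KO chow and 287 to 379 in KO CDAHFD, with an interaction of -3.09 (SE 0.31, edgeR adjusted p = 2.25e-05). Cidec, a lipid droplet protein, rose with either factor and had a combined change of 1.55, below its diet change of 3.03 in WT, with an interaction of -3.79 (SE 0.45, edgeR adjusted p = 7.75e-05). Among 17 heat shock chaperones the smallest p was that of Hspa1a, an inducible Hsp70, which missed the threshold at -1.43 (SE 0.53, edgeR adjusted p = 0.0705).

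Some genes with large negative interactions were near 0 in WT chow. Vmn2r3, annotated as a vomeronasal receptor, had 0 counts in each WT chow library and 11.9, 14.04 and 11.6 CPM in WT CDAHFD, 102 and 68.1 in KO chow and 46.1, 58.1 and 26.8 in KO CDAHFD. Against a floor of 3 counts in the WT chow library with the smallest scaled size it was at least 91.0-fold higher in WT CDAHFD, 616-fold in KO chow and 317-fold in KO CDAHFD. Areg, the EGF receptor ligand amphiregulin, also had 0 counts in WT chow, and was at least 18.0-fold higher in WT CDAHFD, 10.9-fold in KO chow and 19.1-fold in KO CDAHFD. Ly6d held 0.582, 0.472, 0.467 and 0.183 CPM in WT chow, 66.6, 70.03 and 57.4 in WT CDAHFD, 37.8 and 35.04 in KO chow and 18.4, 19.6 and 22.5 in KO CDAHFD. No groups overlapped, and it rose with either factor and fell with diet in KO, with an interaction of -8.05 (SE 0.27, edgeR adjusted p = 8.64e-09). H19, a fetal long noncoding RNA, and Sprr1a, a cornified envelope protein induced by injury, were highest in KO chow. H19 had 39.2 and 47.5 CPM there against 13.96 to 23.7 in KO CDAHFD, and Sprr1a 15.9 and 16.4 against 2.71 to 5.67.

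The remaining functions are given by their counts of called interactions, where 8.63% of all genes were higher and 14.5% lower. Sterol synthesis and the LDL receptor axis were higher in 7 of 24 and lower in 1, and choline, methionine and phosphatidylcholine metabolism was higher in 9 of 23. Phase II conjugation was split, with 15 of 43 higher and 8 lower. Lysosomal genes were lower in 17 of 34 and higher in 1, and 6 of them rose with diet in KO (background 3.76%). Tubulins and the cytoskeleton were lower in 14 of 25 and higher in 1. Oncofetal liver genes were lower in 7 of 13, and T and NK cell markers in 7 of 20. Clock genes were higher in 4 of 19, with a median interaction of 1.10. The median was 0.025 with the clock score, which is built from 13 of these genes, as a covariate, and 0.0020 with replicate number as a block. Glycolysis, gluconeogenesis and glycogen genes were higher in 4 of 34 and lower in 6, which is near the background of 23.1% in all. Female-biased liver genes were higher in 4 of 19 and lower in 4. Acyl-CoA thioesterases, which have close paralogs, were lower in 4 of 11.

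**Figure D5:**
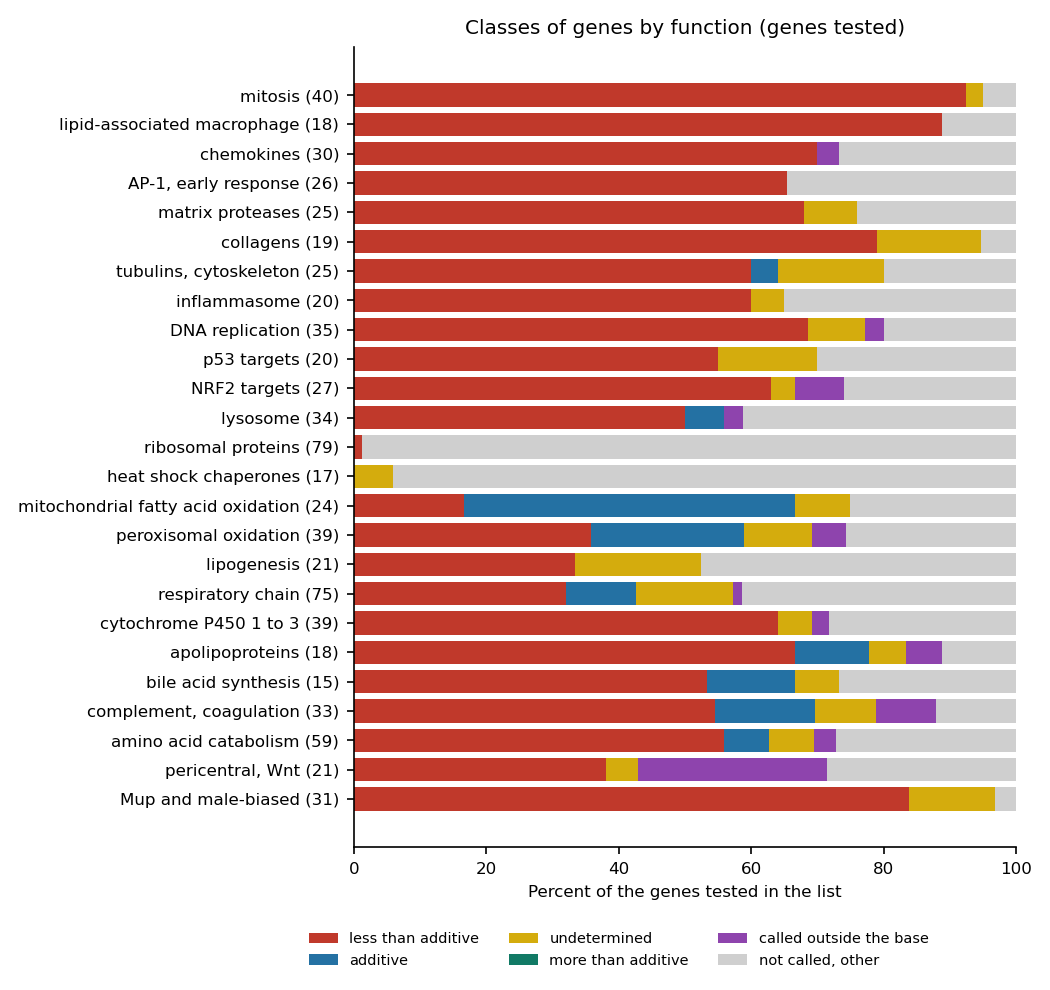
Share of the tested genes of each of 25 lists (number in brackets) in each class, as percent on the x axis. The additive class is widest in mitochondrial fatty acid oxidation (12 of 24 genes) and absent from mitosis (0 of 40).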

How the data were processed

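Per the labels and the study's methods, poly-A RNA of 12 mouse livers was sequenced without strand information. The authors checked reads with FastQC 0.11.5, aligned them to GRCm38 with STAR 2.7.3a and deposited raw read counts per Ensembl gene. The counting program and the annotation release are not given in the sources used here. Of 55357 genes in the table, 30104 had a count. GENCODE M21 gave symbols for 94.08% of identifiers, which hold 99.69% of the counts. No per-sample column was left out (0). Groups and replicate numbers came from the sample labels. That each library is a separate mouse was assumed, and p-values measure the spread between libraries.

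Genes passing filterByExpr were fitted over all 4 groups with the quasi-likelihood test of edgeR 4.0.16 (glmQLFit with the earlier defaults) in R 4.3.3 after TMM scaling, with Benjamini-Hochberg adjustment over 17358 genes and a threshold of 0.05. The standard error is the log2 change divided by the square root of F, and intervals are 95% intervals. CPM use the TMM library sizes. limma 3.58.1 and DESeq2 1.42.0 gave alternatives, with other scalings, filters, thresholds, a clock score and leaving out each library. Python 3.11.15, pandas 2.3.3 and matplotlib 3.10.9 drew the plots. The steps were tested on simulated data, and the simulated spread and fold sizes were revised until the test passed. Members and lists were chosen with earlier results of these data known. Genes were named by a rule (Ppara, the largest interactions, those of smallest p or narrowest interval per list, and opposite diet effects). Genes called in all 4 simple effects, those discussed for stability and those plotted, and the lists plotted, were chosen after their values were seen. Deviations of same-numbered libraries correlated at r from -0.242 to 0.266 over 15 pairs, of which 3 were over 0.1. The labels name no pairing, so these libraries were not treated as pairs in the main fit. The values of some genes are not reported here.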

Additional observations from a re-analysis of the deposited data

Results flagged for a closer look

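The diet effect differed between WT and KO by the test of the interaction in 4011 genes, and 101 genes had called diet effects of opposite direction in the genotypes. Of the genes named in the report, those with the largest differences of opposite direction had interactions, on the log2 scale, of -6.72 for Gsta1, -8.52 for H19, -8.05 for Ly6d, 10.30 for Mup11, -9.60 for Slc7a11 and -11.17 for Sprr1a. The value of a gene with 0 to 3 counts in WT chow depends on the prior count, which applies to H19, Slc7a11 and Sprr1a.

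In WT chow, the group of 4 libraries, Sprr1a in replicate 4 (0.0459 CPM) was past the limit of Dixon's test, 1 of 62 genes tested. Its WT chow libraries held 0, 0, 0 and 1 counts, so the test rests on a single read against libraries without one and says nothing of this library. Chance sets apart about 1 in 20 such groups.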

How the results depend on the processing

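The interaction was called for 4011 genes, and for 3137 to 5222 under the alternatives that kept all libraries. Library size as the only scaling gave 676 higher and 4268 lower calls, a lower share of 86.3% against 62.7%. The same scaling changed the sign of the median interaction of 10 of 61 lists. In 3 of these the median had exceeded the spread between libraries, and it moved to -0.068 for mitochondrial fatty acid oxidation and ketogenesis, -0.11 for glycolysis, gluconeogenesis and glycogen and -0.14 for DNA methylation and histone deacetylation. More than additive genes numbered 2 with every gene with a count and 0 with limma voom. Additive genes numbered 92 where the interval had to lie within 0.6. With replicate number as a block they numbered 439, with 3137 genes called and 2874 less than additive, although the numbers pair nothing in the labels and 3 of 15 same-numbered pairs correlated above 0.1. Over the fits that left out 1 library, calls ran from 2828 to 4630, higher calls from 887 to 1824, less than additive genes from 2615 to 4201, additive genes from 266 to 762 and more than additive genes from 0 to 1. The interaction of Ppara ran from 1.197 to 2.62 over them, and it passed the threshold at 1.70 with every gene with a count, 1.74 with DESeq2 and 1.27 with the clock score. The cause of these changes was not tested. No named gene reversed, 23 values of named genes lost their call and 48 gained one. Without a KO chow library the other stood alone and was assumed to vary like the other groups, and with 2 libraries there the interaction had a median SE of 0.303.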
